A study of Mus musculus with 21 samples.

Results

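Perineuronal nets are lattices of extracellular matrix that wrap some neurons. The genes of their main proteins were followed here in spiral ganglion neurons (SGNs), the auditory neurons of the cochlea, and in the hair cells (HCs) and glial cells beside them. There are 9 of these genes among the 52550 in the count table: the 4 hyaluronan link protein genes *Hapln1* to *Hapln4*, the 4 lectican genes *Acan*, *Bcan*, *Ncan* and *Vcan*, and the tenascin-R gene *Tnr*. They were chosen by family, but also by measured values, because the change of *Hapln4* from P1 to P8 was known when the family was picked. Values of the members between P1 and P8 are therefore given as a description, with no p, and nothing is read from how many pass a limit.

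Hyaluronan is a long sugar chain made at the cell surface. Lecticans bind it through one end and carry chondroitin sulfate chains along their length, link proteins lock the lectican to the hyaluronan, and tenascin-R joins the free ends of lecticans to each other. In the brain, such nets condense around fast-spiking neurons late in postnatal development and are known for limiting plasticity. The same proteins also occur at nodes of Ranvier and in cartilage, where aggrecan and *Hapln1* are abundant.

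RNA-Seq was performed on 21 libraries, 3 for each of 7 groups of C57BL/6 mouse cells. SGNs were taken in the embryo at E15.5 and after birth at P1, P8, P14 and P30 from *ShhCre/+* mice that also carried *Rosa26-CAG-loxp-stop-loxp-tdTomato/+*, the Ai9 allele, in which Cre under *Shh* control switches on the red reporter in cochlear SGNs. HCs at P12 came from the inner ear of *Atoh1-CreER+* mice with the same reporter, given tamoxifen at P0 and P1. They were both cochlear and vestibular, and the labels give manual sorting for them where the study's methods describe flow cytometry. Glial cells at P8 came from *vGlut3-iCreER/+* mice with this reporter, given tamoxifen at P2 and P3, after inner hair cells had been dissected away. A library was a pool of 69 to 195 SGNs, 86 to 125 glial cells or 1200 HCs, and SGN pools had to show low *Sox10* and *Myo6* by qPCR before they were sequenced. The labels do not say that replicates came from separate animals, so p-values measure the spread between these samples, which may be technical.

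Libraries held between 10368240 and 37287489 counts on genes. Levels are given as normalised CPM, which is CPM (a gene's counts relative to its library's total) scaled by the trimmed mean of M-values (TMM) so that most genes keep the same level, and levels of different genes are compared only as normalised CPM per kb of transcript. The 3 SGN markers *Slc17a6*, *Slc17a7* and *Lypd1* summed to between 41.4 and 358.8 normalised CPM per kb in SGN libraries and to between 1.56 and 2.84 in HCs. In glial cells this sum was 32.1 in replicate 1 against 4.57 and 1.65 in the others. The 4 HC markers *Myo6*, *Myo7a*, *Pou4f3* and *Gfi1* reached 376 to 394 in HCs and at most 49.3 in SGNs. The glial markers *Sox10* and *Foxd3* reached 171 to 304 in glial cells and at most 19.55 in SGNs. In bulk samples, fewer cells of a type and less RNA per cell cannot be told apart.

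Some libraries stood apart in cartilage genes. The summed level of 10 cartilage genes, among them *Col2a1*, *Matn1* and *Comp*, chosen after their values were seen, was 1233 normalised CPM per kb in E15.5 replicate 2, against 27.4 and 30.9 in the other E15.5 libraries. It was 258 in P1 replicate 1, 318 in P8 replicate 1, 183 in glial replicate 2 and 351 in glial replicate 3, and at most 30.5 in each of the other libraries. Other markers also set libraries apart. Those of connective tissue summed to 72.1, 107.5, 23.04 and 16.2 in replicate 1 of P1, P8, P14 and P30, against at most 11.12 in the other libraries of these ages. Blood markers summed to 114.7, 19.2, 22.2 and 15.3 in replicate 1 of E15.5, P1, P8 and P30, against at most 2.58 in their other libraries. The cartilage values matter for *Acan* and *Hapln1* below. Results on the 9 genes that rest on E15.5 replicate 2 or glial replicate 1 are given with and without it.

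In the genome (GRCm38, positions from GENCODE M21), each link protein gene lies beside a lectican gene with 0 protein-coding genes between them. *Hapln1* (chr13:89539796-89611652, plus strand) is 43659 bases from *Vcan* (chr13:89655312-89742509, minus strand), and *Hapln2* (chr3:88021750-88027583, minus) is 21519 bases from *Bcan* (chr3:87987531-88000230, minus). *Hapln3* (chr7:79115102-79131018, minus) ends 2 bases from the end of *Acan* (chr7:79053483-79115099, plus), and *Hapln4* (chr8:70083457-70090862, plus) ends 2222 bases from the end of *Ncan* (chr8:70093085-70120873, minus). *Tnr* (chr1:159523769-159931729, plus) has no such partner. Genes of 3 of these pairs point toward each other, and the setting for strand in the counting is not given in the sources used here, so reads that run past one gene's end into its neighbour cannot be told from the neighbour's own. The antisense genes *Gm8546* in *Hapln1* and *Gm4117* in *Vcan* held at most 90 and 162 counts in a library.

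The promoters of the lecticans that changed with age are shown so that the rising *Bcan* can be set beside the falling *Ncan* and *Vcan*. RefSeq promoters (GRCm38.p6) were matched for 8 of the 9 members, not for *Hapln4*. Each line gives the 250 bases before the RefSeq start, 5′ to 3′ on the gene's strand, with every match to the 5 motifs searched in capitals: the TATA box TATAAA, the CCAAT box CCAAT, the GC box GGGCGG, the E-box CAGGTG known to be bound by Snail and Scratch factors, and TGACG, the core of the cAMP response element, on both strands.
Bcan, chr3:88000357-88000606, minus strand: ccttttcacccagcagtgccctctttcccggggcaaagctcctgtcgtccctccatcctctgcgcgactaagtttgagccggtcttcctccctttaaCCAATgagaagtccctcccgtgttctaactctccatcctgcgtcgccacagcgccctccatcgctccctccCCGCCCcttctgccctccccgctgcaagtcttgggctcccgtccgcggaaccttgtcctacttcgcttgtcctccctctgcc
Ncan, chr8:70120845-70121094, minus strand: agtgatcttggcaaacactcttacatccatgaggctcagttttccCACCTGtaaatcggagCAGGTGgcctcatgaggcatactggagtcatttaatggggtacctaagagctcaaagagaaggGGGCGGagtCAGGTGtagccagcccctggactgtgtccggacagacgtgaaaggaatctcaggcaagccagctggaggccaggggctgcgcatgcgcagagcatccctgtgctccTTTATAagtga
Vcan, chr13:89742513-89742762, minus strand: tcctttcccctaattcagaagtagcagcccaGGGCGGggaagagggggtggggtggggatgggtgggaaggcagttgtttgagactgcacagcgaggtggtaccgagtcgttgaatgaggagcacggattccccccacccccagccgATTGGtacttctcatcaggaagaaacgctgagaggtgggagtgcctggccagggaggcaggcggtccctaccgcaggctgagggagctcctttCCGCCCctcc
The *Bcan* sequence held 1 CCAAT box and 1 GC box, and that of *Vcan* 1 CCAAT box and 2 GC boxes. The *Ncan* sequence held 3 matches to CAGGTG, with 1 GC box and 1 TATA box on the minus strand between bases -11 and -6. CAGGTG was in 1 of the 8 member promoters and in 17.1% of 27025 promoters of this length, the GC box in 4 of 8 and 32.9%, the CCAAT box in 4 of 8 and 34.5%, the TATA box in 2 of 8 and 13.0%, and TGACG in 0 of 8 and 17.9%. A match is a description of these letters and not a binding site.

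The link proteins were followed first. *Hapln4*, which in the brain partners brevican in perineuronal nets, was low in young SGNs and high in old ones. Its normalised CPM was 2.07, 6.83 and 6.62 at E15.5 and 3.51, 4.001 and 2.93 at P1. It was 152, 193 and 192 at P8, 414, 472 and 463 at P14, and 372, 481 and 433 at P30. The groups at P8, P14 and P30 lay above both younger groups without overlap, P8 lay below P14, and P14 and P30 overlapped. Across the P1 to P8 step the fitted log2 fold change was 5.67 ± 0.43 (SE, 3 libraries per age) or 51.0-fold. In the limma fit across all genes, the P8 to P14 difference of *Hapln4* was 1.34 ± 0.15 on the log2 scale, or 2.54-fold. It is given without a p because the P8 libraries entered the choice of *Hapln4*. From P14 to P30 the difference was -0.13 ± 0.14, with a limma p of 0.98 after Benjamini-Hochberg (BH) adjustment. From E15.5 to P30 it rose 85.05-fold, by 6.41 ± 0.45 on the log2 scale (limma BH-adjusted p = 2.9e-08). The P8 to P14 difference passed the limits of a call in the limma fit but not with the edgeR quasi-likelihood test. With a library of either age left out, this difference ran from 1.24 to 1.41.

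**Figure D1:**
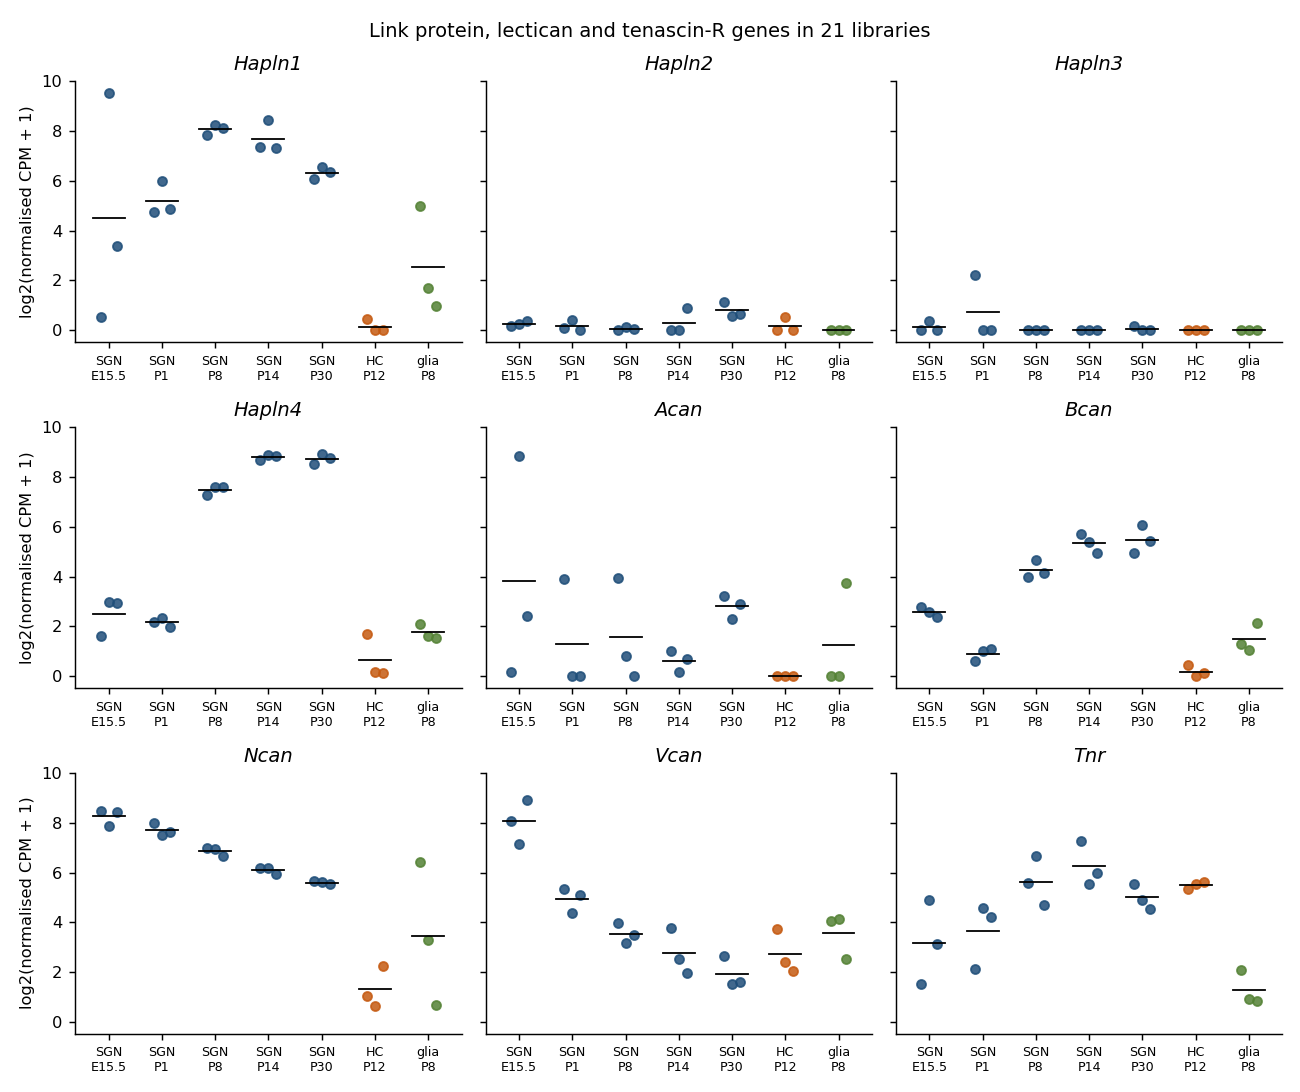
Levels of the 9 genes in 21 libraries, as log2(normalised CPM + 1), with a point for each library and a line at the mean of each group of 3. *Hapln4* and *Bcan* stand high from P8 onward, *Ncan* and *Vcan* step down from E15.5 to P30, and *Acan* and *Hapln1* at E15.5 have a single library far above the rest.

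*Hapln1*, the link protein first known from cartilage, was high in all P8 and P14 SGN libraries and highest of all in a single E15.5 library. The normalised CPM was 26.1, 62.3 and 28.2 at P1, and 228, 303 and 282 at P8. It was 164, 345 and 158 in P14 libraries and 67.2, 94.2 and 80.8 in P30 libraries. P8 lay above P1 and P30 without overlap, and P8 overlapped P14. The fitted log2 fold change from P1 to P8 was 2.94 ± 0.82. From P8 to P14 the difference was -0.37 ± 0.65 (limma BH-adjusted p = 0.90).

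From P14 to P30 the log2 fold change of *Hapln1* was -1.44 ± 0.77 (limma BH-adjusted p = 0.82). Same-numbered libraries deviated together at these ages, a pairing that comes from the data and is not given by the labels. With the replicate number as a block, *Hapln1* fell by 1.44 on the log2 scale with a limma BH-adjusted p of 0.0045. At E15.5 the normalised CPM was 0.467, 743 and 9.47, so the high library is replicate 2, the library with the cartilage sum of 1233. The E15.5 to P30 difference was 1.90 ± 1.27 (limma BH-adjusted p = 0.24) with that library and 4.90 (0.0074) without it, and it was negative, at -1.67, in the edgeR test with all libraries.

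The other link protein genes were close to the limit of detection. *Hapln2*, known from nodes of Ranvier in central myelin, had at most 36 counts in a library, and its P30 libraries had 1.20, 0.494 and 0.592 normalised CPM. *Hapln3* had 128 counts in P1 replicate 1, 6 in E15.5 replicate 2, 4 in P30 replicate 1 and 0 in each of the other 18 libraries. A count of 0 allows up to 3 counts, which was between 0.0805 and 0.289 CPM by library, for counting error only. Neither gene passed the filter of CPM over 1 in all replicates of a group, so 7 of the 9 members were tested.

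Per length, the make-up of the link protein family differed between ages. At E15.5 *Hapln4* made up between 1.36% and 79.6% of the family's summed level, and the sum was 43.9 ± 72.6 normalised CPM per kb, with the high *Hapln1* of replicate 2. *Hapln4* made up 8.71% to 14.05% of the family's summed level in P1 SGNs and 48.9% to 50.6% at P8, then 67.3% to 81.35% at P14 and 88.4% to 88.8% in P30 libraries. Since *Hapln4* was chosen on its P1 to P8 values, the first step of this series is a description. The ranges of these 4 ages from P1 did not overlap with each other, and that of E15.5 overlapped P1, P8 and P14. The family sum was 7.87 ± 3.35 normalised CPM per kb at P1 and 91.6 ± 12.55 at P8. At P14 it was 152 ± 23.6, and P30 libraries had 123 ± 16.1 (SD, n = 3).

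**Figure D2:**
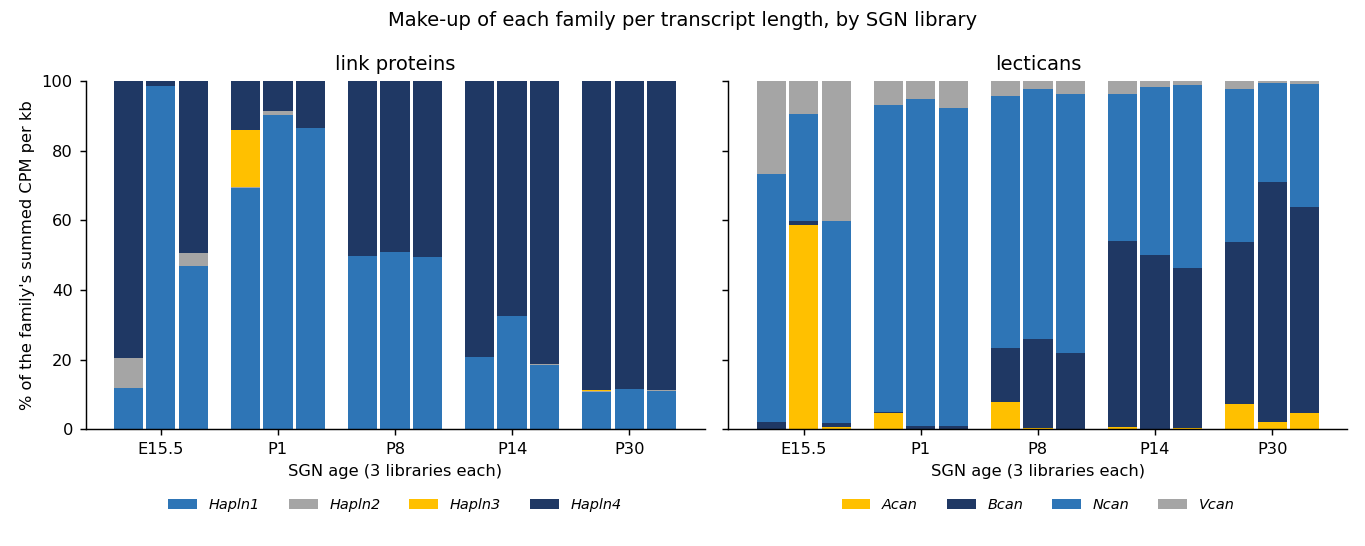
Share of each gene in the summed normalised CPM per kb of the link proteins (left) and the lecticans (right), with a stacked bar for each of the 15 SGN libraries grouped by age. *Hapln4* goes from at most 14.05% at P1 to at least 88.4% at P30, *Bcan* and *Ncan* are near equal at P14, and E15.5 replicate 2 stands out through *Hapln1* and *Acan*.

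Among the lecticans, *Ncan* and *Vcan* were highest in embryonic SGNs and lowest at P30, and *Bcan* was highest at P14 and P30. *Ncan* encodes neurocan, a lectican of developing nervous tissue. Its normalised CPM was 359, 233 and 344 at E15.5, 251, 179 and 196 at P1, and 124, 122 and 99.1 at P8, then 71.8, 70.8 and 60.7 at P14 and 49.2, 47.96 and 45.3 at P30. Every age from P1 to P30 lay below the age before it, without overlap except for E15.5 and P1. The log2 differences of neighboring ages were -0.55 ± 0.18 (limma BH-adjusted p = 0.055), -0.86 ± 0.19, -0.75 ± 0.22 (0.14) and -0.55 ± 0.26 (0.75), and none was over 2-fold. From E15.5 to P30, *Ncan* fell by 2.71 ± 0.23 on the log2 scale, or 6.55-fold (limma BH-adjusted p = 1.6e-07). Without E15.5 replicate 2 the difference was -2.94.

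*Vcan* encodes versican, which is widespread in embryonic tissue and lies at nodes of Ranvier in the adult. Its normalised CPM was 271, 142 and 481 at E15.5, and 40.02, 19.7 and 33.1 at P1. At P8 it was 14.9, 7.97 and 10.2, at P14 12.8, 4.81 and 2.90, and at P30 5.19, 1.87 and 2.05. The step from E15.5 to P1 had the largest fitted difference, and the groups at E15.5, P1 and P8 did not overlap. *Vcan* fell from E15.5 to P1 by 3.12 ± 0.42 on the log2 scale, or 8.72-fold (limma BH-adjusted p = 0.00039), and from E15.5 to P30 by 6.53 ± 1.00, or 92.2-fold (limma BH-adjusted p = 9.1e-05). Without E15.5 replicate 2 these differences were -3.62 and -7.02. The P1 to P8 difference was -1.49 ± 0.63, and the later steps were -0.83 ± 0.95 and -1.08 ± 1.26 (limma BH-adjusted p = 0.82 and 0.98).

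*Bcan* encodes brevican, a lectican that neurons and glia of the brain both make. Its normalised CPM was 5.87, 4.99 and 4.21 at E15.5, 0.514, 0.990 and 1.15 at P1, and 14.9, 24.6 and 16.5 at P8. It was 51.2, 41.2 and 30.1 at P14 and 29.7, 65.7 and 42.5 at P30. P1 was below E15.5 and P8 was above both, each without overlap, and P14 and P30 overlapped. From E15.5 to P30, *Bcan* rose 8.23-fold, by 3.04 ± 0.53 on the log2 scale (limma BH-adjusted p = 0.00029), and by 3.03 without E15.5 replicate 2.

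The steps of *Bcan* between neighboring ages were less certain. The E15.5 to P1 difference was -2.58 ± 0.90 (limma BH-adjusted p = 0.073) and passed the call with edgeR (BH-adjusted p = 0.0015) and DESeq2 (1.3e-07). Its P1 to P8 difference was 4.47 ± 0.80, and its P8 to P14 difference was 1.165 ± 0.33 (limma BH-adjusted p = 0.11). The P14 to P30 difference was -0.0084 ± 0.29 (limma BH-adjusted p = 0.998).

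*Acan* encodes aggrecan, the main proteoglycan of cartilage and a common label of perineuronal nets. Its counts were 2, 9456 and 90 at E15.5, 483, 0 and 0 at P1 and 462, 22 and 0 at P8. They were 24, 2 and 10 in P14 libraries and 253, 70 and 118 in P30 libraries. At E15.5, P1 and P8 and in glial cells, where the counts were 0, 0 and 128, a single library held nearly all of them. In all 6 groups with any *Acan* count, the library with the highest *Acan* level was also the library with the highest cartilage sum. Because the cartilage genes were chosen after their values were seen, this match is a description and no support. The part of cartilage RNA in the *Acan* values was not tested. At P30 the normalised CPM was 8.41, 3.84 and 6.35, above the 3 P14 libraries without overlap, while the cartilage sums were 30.5, 4.04 and 1.26. No *Acan* difference between neighboring ages passed the test. The fitted values ran from -5.36 ± 3.65 for E15.5 to P1 to 3.73 ± 3.29 for P14 to P30 (limma BH-adjusted p = 0.36 and 0.96). Without E15.5 replicate 2 the E15.5 to P1 difference was -2.12 (limma BH-adjusted p = 0.64), and the E15.5 to P30 difference was -0.63 with all libraries and 2.62 without E15.5 replicate 2.

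**Figure D3:**
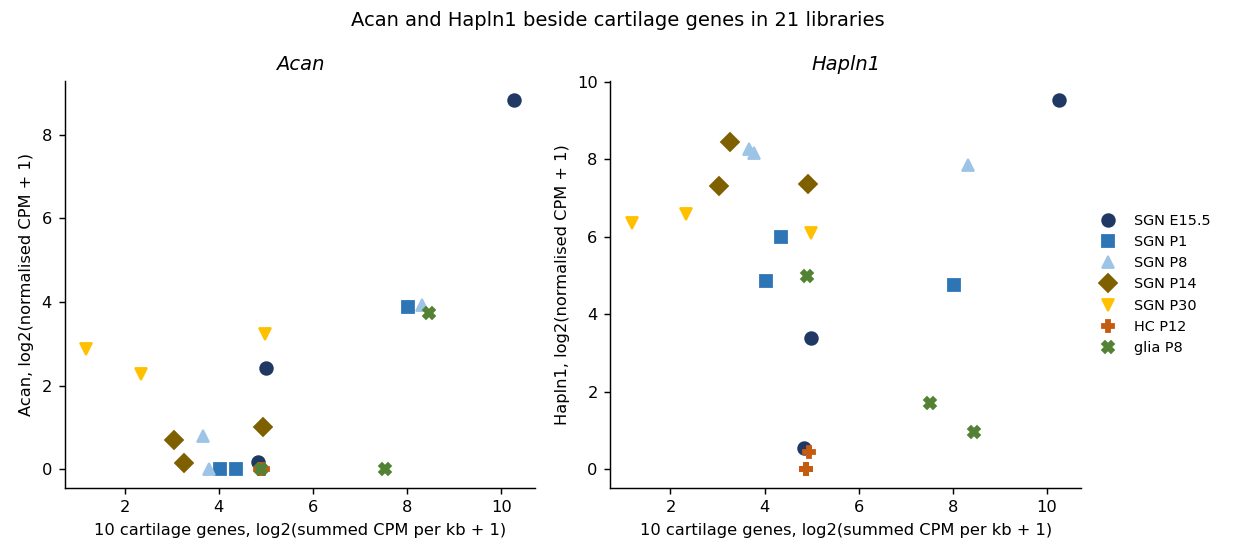
*Acan* (left) and *Hapln1* (right), as log2(normalised CPM + 1), against the summed level of 10 cartilage genes, as log2(summed normalised CPM per kb + 1), in 21 libraries marked by group. E15.5 replicate 2, at a cartilage sum of 1233, has the highest level of both genes, while most *Hapln1* values of P8 to P30 SGNs lie high at cartilage sums of 30.5 or less.

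The lectican family sum changed less than its make-up after birth. It was 32.0 ± 6.85 normalised CPM per kb at P1 and 22.05 ± 3.03 at P8. At P14 it was 20.02 ± 3.74, and P30 libraries had 18.95 ± 4.055 (SD, n = 3). *Ncan* made up 88.05% to 93.9% of it at P1 and 71.8% to 74.3% at P8, then 42.3% to 52.3% at P14 and 28.4% to 43.8% at P30. *Bcan* made up 0.319% to 0.946% at P1 and 15.4% to 25.5% at P8, then 45.96% to 53.4% at P14 and 46.7% to 68.9% at P30. The shares of P1, P8 and P14 did not overlap for either gene, and those of P14 and P30 did.

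*Tnr* encodes tenascin-R, which links lecticans through their C-type lectin domains. Its libraries of an age spread widely. The normalised CPM was 1.87, 28.5 and 7.64 at E15.5, 3.37, 22.9 and 17.6 at P1, and 46.2, 101 and 24.6 at P8. It was 155, 45.8 and 61.9 in P14 libraries and 45.9, 29.2 and 22.5 in P30 libraries. P1 and P8 did not overlap, and every other pair of neighboring ages did. P14 replicate 1, the highest library, also had the highest HC and glial marker sums of its age (49.3 and 8.85) and an oligodendrocyte marker sum of 6.935 normalised CPM per kb against 0.156 and 0.3737, and their part in its value was not tested. The P1 to P8 difference was 2.34 ± 0.79. From P14 to P30 it was -1.31 ± 0.64 (limma BH-adjusted p = 0.78), and with the replicate block *Tnr* fell by 1.47 (limma BH-adjusted p = 0.013).

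**Figure D4:**
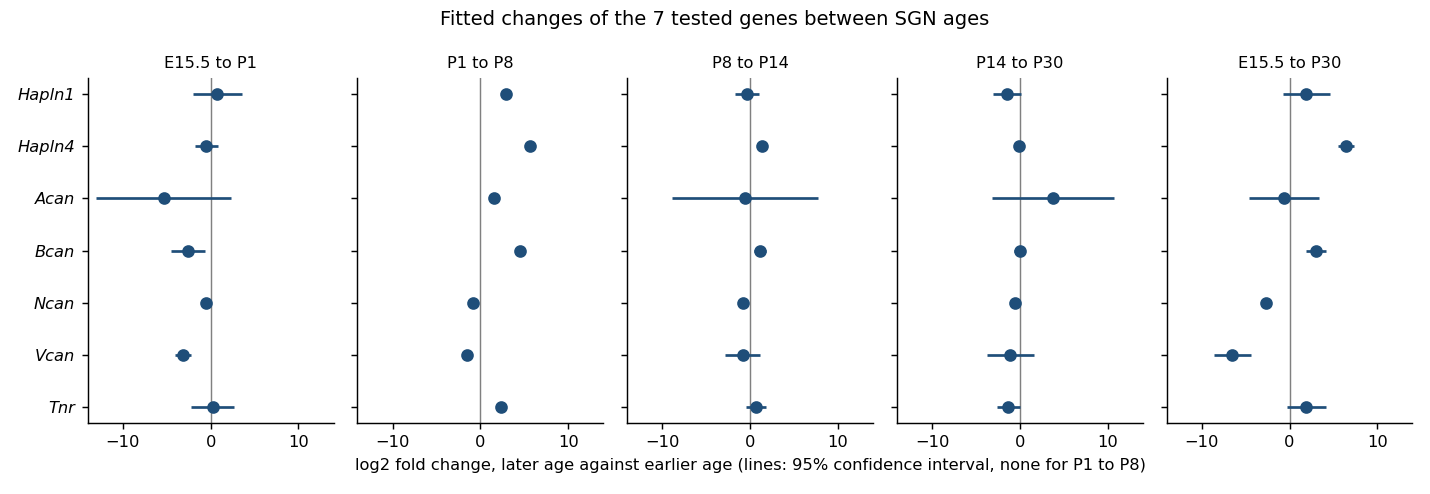
Fitted log2 fold change of the 7 tested genes (points) in the 4 neighboring steps and from E15.5 to P30, where values above 0 are higher at the later age, with 95% confidence intervals (lines) except from P1 to P8, which is a description. The intervals of *Hapln4* and *Bcan* lie above 0 and those of *Ncan* and *Vcan* below 0 from E15.5 to P30. From E15.5 to P1 those of *Bcan*, *Ncan* and *Vcan* lie below 0. From P8 to P14 those of *Hapln4* and *Bcan* lie above 0 and that of *Ncan* below 0. From P14 to P30 that of *Ncan* lies below 0. The other drawn intervals, with all those of *Acan*, *Hapln1* and *Tnr*, span 0. Intervals are not adjusted for the number of genes.

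A gene was called between ages when its BH-adjusted p was under 0.05 and the difference over 2-fold. Between E15.5 and P1, 0 of the 7 tested members rose and 1 fell, where 5.08% of 15113 genes rose and 3.18% fell. From P1 to P8, 4.29% of genes rose and 3.15% fell, and members are not counted because values of this step were used in the choice. From P8 to P14, 1 rose and 0 fell against 0.251% and 0.285% of genes, a description because the P8 libraries entered the choice. From P14 to P30, 0 rose and 0 fell against 0.0331% and 0.0265%, with limma, edgeR and DESeq2 alike, and *Ncan* alone had an unadjusted limma p under 0.05. At this step and with the replicate block, 0 rose and 2 fell against 0.371% and 0.715%. Over the whole span to P30, 2 rose and 2 fell, where 18.4% of genes rose and 16.2% fell. Without E15.5 replicate 2, 3 rose and 2 fell, where 16.8% of genes rose and 18.4% fell. Neighboring steps share the libraries of the age between them.

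*Hapln4* and *Bcan* were low in both reference cell types, each of which was sampled at a single age. In glial cells the normalised CPM of *Hapln4* was 3.30, 2.08 and 1.92, that of *Bcan* 1.44, 1.04 and 3.37, and that of *Tnr* 3.30, 0.868 and 0.770. P8 SGNs lay above them without overlap for each of these genes. *Hapln4* was higher in P8 SGNs than in glial cells by 6.15 ± 0.67 on the log2 scale, or 71.2-fold, given without a p because the P8 libraries entered the choice of *Hapln4*. *Bcan* was higher by 3.40 ± 0.75 or 10.525-fold (limma BH-adjusted p = 0.0011) and *Tnr* by 5.12 ± 1.40 or 34.8-fold (0.0056). These p-values draw on the same P8 libraries and are no independent support. The *Bcan* call was lost when libraries were weighted by quality (limma BH-adjusted p of 0.072) or blocked by replicate number (0.0385). The *Tnr* call, at a limit of 0.01 and 4-fold for comparisons of cell types, was lost without glial replicate 1 (limma BH-adjusted p = 0.021). It was lost as well without glial replicate 2 or 3 (0.035 and 0.036) or SGN replicate 2, and with quality weights.

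*Ncan* and *Hapln1* were highest in the glial library with the highest SGN marker sum. So were *Hapln4* and *Tnr*, at no more than 3.30 normalised CPM, while *Bcan*, *Vcan* and *Acan* were highest in other glial replicates. *Ncan* was 85.6, 8.68 and 0.577 and *Hapln1* was 30.7, 2.26 and 0.962 in glial replicates 1, 2 and 3, with SGN marker sums of 32.1, 4.57 and 1.65, and the part of SGN RNA in these values was not tested. The SGN to glia difference of *Ncan* was 3.43 ± 0.83 (limma BH-adjusted p = 0.0023), 5.59 (0.00016) without glial replicate 1, 3.29 (0.013) without replicate 2 and 1.76 (0.014) without replicate 3. The *Ncan* call was lost without glial replicate 2 or 3, with edgeR (1.85, BH-adjusted p = 0.097) and with DESeq2 (1.87, 0.049). Quality weights and the replicate block also removed the *Ncan* call. For *Hapln1* it was 5.71 ± 1.82 (limma BH-adjusted p = 0.015), short of the limit, and 7.46 (0.047) without glial replicate 1. *Vcan* was 15.7, 16.5 and 4.81 in glial cells, which overlapped P8 SGNs, with a difference of -0.10 ± 0.90 (95% interval -1.98 to 1.78, limma BH-adjusted p = 0.94). In all, 4 of 7 members were called higher in P8 SGNs, *Hapln4* among them, and 0 lower, where 13.4% and 7.53% of 17531 genes were. Because the P8 libraries entered the choice of the genes, this count is a description and no support. For the same reason the p-values of *Ncan*, *Hapln1* and *Vcan* against glial cells are no independent support. P8 SGN libraries carried Schwann cell myelin markers at a summed 635 to 1051 normalised CPM per kb against 6044 to 8401 in glial cells.

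HCs had few or no counts of the link proteins and clear levels of *Tnr*. *Tnr* was 39.3, 45.2 and 48.3 normalised CPM in HCs, within the range of P8 to P30 SGNs, and P14 SGNs differed from HCs by 0.83 ± 0.55 (95% interval -0.32 to 1.98, limma BH-adjusted p = 0.23). *Hapln1* counts in HCs were 6, 0 and 0, *Hapln4* 38, 3 and 2, *Bcan* 6, 0 and 2, and *Acan* 0, 0 and 0. *Ncan* was 1.06, 0.556 and 3.69 normalised CPM and *Vcan* 12.2, 4.37 and 3.13. P14 SGNs lay above HCs without overlap for *Hapln1*, *Hapln4*, *Bcan* and *Ncan*, and *Vcan* overlapped.

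Against HCs, P14 SGNs had higher *Hapln4* by 10.47 ± 0.81 on the log2 scale (limma BH-adjusted p = 5.3e-09), *Bcan* by 8.79 ± 0.90 (1.6e-07), *Ncan* by 5.65 ± 1.15 (0.00044) and *Hapln1* by 11.90 ± 2.76 (0.0014). Where HC libraries are at 0, these fitted values depend on the small count added in the fit. The *Hapln1* call was lost without HC replicate 2 or 3 (limma BH-adjusted p = 0.012 and 0.013). *Vcan* differed by 0.19 ± 1.10 (limma BH-adjusted p = 0.91). Higher in P14 SGNs were 4 of 7 members and lower 0, where 10.9% and 12.2% of genes were. These 4 passed the filter of CPM over 1 through other groups and not through HCs. This count is therefore a description and no support.

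Between the reference cells, *Tnr* was higher in HCs than in glial cells by 4.96 ± 1.41 (limma BH-adjusted p = 0.0071) and *Bcan* lower by a log2 difference of -4.23 ± 1.11 (0.0041). Of the 7 members 1 was higher and 1 lower, where 16.2% and 8.18% of genes were. The *Tnr* call was lost when any 1 of the 6 libraries was left out, with adjusted p from 0.01034 to 0.041, and between 0 and 2 members were called in these fits. The *Bcan* call was lost without HC replicate 2 or 3 or glial replicate 1 or 3 (limma BH-adjusted p from 0.01019 to 0.0378), and with library size only, sample quality weights or the replicate block. The *Tnr* levels of HCs and glial cells did not overlap.

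Ordered by level, the groups fell differently for each gene. For *Hapln4* the order was P14, P30, P8, E15.5, P1, glia and HC, with overlap between P14 and P30, E15.5 and P1, P1 and glia, and glia and HC. For *Ncan* it was E15.5, P1, P8, P14, P30, glia and HC, and E15.5 with P1, P30 with glia, and glia with HC overlapped. For *Tnr* it was P14, P8, HC, P30, P1, E15.5 and glia, and every pair of neighbors in this order overlapped. Per length, *Hapln4* was the highest member in SGNs at P14 and P30, with 115 ± 7.99 and 109 ± 14.02 normalised CPM per kb (SD, n = 3), ahead of *Hapln1* at 37.6 ± 18.0 and 13.7 ± 2.29. *Ncan*, at 43.4 ± 9.59, led the lecticans at E15.5 by its mean, where *Vcan* had 20.6 ± 11.855, although *Acan* led in replicate 2 with 58.55% of the lectican sum.

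Members that lie next to each other in the genome varied in how closely their levels moved together. Over the 15 SGN libraries, which share age groups and are not independent, Pearson's r of log2(normalised CPM + 1) was -0.92 for *Hapln4* and *Ncan*, whose 3′ ends face each other, and -0.55 for *Hapln1* and *Vcan*. Over all 21 libraries it was 0.32 for *Hapln4* and *Ncan* and -0.08 for *Hapln1* and *Vcan*. In the 15 SGN libraries r was 0.31 for *Hapln2* and *Bcan* and 0.36 for *Hapln3* and *Acan*, pairs with a gene near the limit of detection. Between genes of different pairs, r in SGN libraries was 0.94 for *Hapln4* and *Bcan* and 0.93 for *Ncan* and *Vcan*. Over all 21 libraries these were 0.96 and 0.57. Strongly negative r was not limited to genes of a pair. In SGN libraries it was also -0.84 for *Bcan* and *Ncan* and -0.83 for *Hapln4* and *Vcan*.

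Genes with the most similar pattern were taken as the 3 with the highest r of log2(TPM + 1) over the 21 libraries among 17531 genes. For *Hapln4* they were *Scn4b* (0.993), a sodium channel beta subunit, *Akain1* (0.988) and *Ccbe1* (0.979). *Scn4b* had 4.49 ± 0.686 normalised CPM at P1, 159.6 ± 31.1 at P8 and 447 ± 44.2 at P30 (SD, n = 3). For *Bcan* they were *Vwa7* (0.9625), *Hapln4* (0.9555) and *Akain1* (0.951), so *Hapln4* is itself among the genes most like *Bcan*. For *Ncan* they were the kinesin gene *Kif21b* (0.978), the kinase gene *Camk4* (0.971) and the drebrin gene *Dbn1* (0.971), and *Kif21b* had 593 ± 82.3 normalised CPM at E15.5 and 84.45 ± 14.8 at P30. For *Vcan* they were *Igf2bp1* (0.948), which encodes an RNA-binding protein of embryonic cells, *Kcnh4* (0.942) and *Gm2824* (0.934). For *Acan* they were *Plagl1* (0.848), *Comp* (0.813) and *Fn1* (0.786), of which *Comp* is a cartilage gene. For *Hapln1* they were *Car10* (0.874), the vesicular glutamate transporter gene *Slc17a7* (0.866) and *Kcnip1* (0.860), and for *Tnr* they were *Dnph1* (0.903), *Kcns3* (0.895) and *Clip4* (0.894). With normalised CPM in place of TPM, 10 of the 21 genes were among the top 3 again. These were 3 of 3 for *Hapln4*, 2 of 3 each for *Bcan*, *Ncan* and *Vcan*, 1 of 3 for *Acan* and 0 of 3 for *Hapln1* and *Tnr*.

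The other matrix genes were counted from lists of 76 genes in the table, in which 12 genes passed the call in a neighboring step. The lists were chosen with earlier results of these data known. Counts and medians of the lists are therefore descriptions, and the p-values of their genes are no independent support. The hyaluronan list held 14 genes, of which 8 were tested. *Has3*, a hyaluronan synthase, fell at both early steps. Its normalised CPM was 143, 58.9 and 158 at E15.5, 49.3, 41.8 and 56.1 at P1, 23.9, 20.8 and 19.8 at P8, and between 13.6 and 24.1 at P14 and P30. The groups of the first 3 ages did not overlap. It fell by 1.16 ± 0.30 from E15.5 to P1 (limma BH-adjusted p = 0.021) and by 1.17 ± 0.36 from P1 to P8 (0.046) on the log2 scale.

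*Cemip2*, a cell surface hyaluronidase, had 284, 150 and 301 normalised CPM at E15.5, 130, 104 and 137 at P1 and 56.2, 55.1 and 63.3 at P8, and the later ages lay between 26.2 and 50.6. It fell by 1.08 ± 0.26 from P1 to P8 (limma BH-adjusted p = 0.014). From E15.5 to P30, 4 of the 8 tested hyaluronan genes fell (*Has3*, *Cemip*, *Cemip2* and the hyaluronan receptor gene *Cd44*) and 0 rose, where 16.2% of all genes fell and 18.4% rose. Their median log2 difference was -1.69 against -0.0064 over all genes tested.

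Of 22 chondroitin sulfate genes, 17 were tested. From E15.5 to P1, 0 rose and 1 fell, where 5.08% and 3.18% of all genes did, and from P1 to P8, 1 rose and 0 fell against 4.29% and 3.15%. *Csgalnact2*, which starts the chain, had 5.60, 11.3 and 8.70 normalised CPM at E15.5 and 0.914, 3.56 and 2.25 at P1, and fell by 2.205 ± 0.63 on the log2 scale (limma BH-adjusted p = 0.034). *Chpf2*, a chondroitin polymerising factor, had 5.71, 7.92 and 14.5 at P1 and 17.3, 27.7 and 28.2 at P8, and rose by 1.505 ± 0.375 (limma BH-adjusted p = 0.015). Both differences were without overlap. Over the whole span, 3 of the 17 rose and 0 fell, where 18.4% and 16.2% of all genes did, with a median log2 difference of 0.21.

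Among lectican proteases and their inhibitors, 10 of 14 genes were tested, and 3 rose from P1 to P8 and 0 fell, where 4.29% of all genes rose and 3.15% fell. *Adamts5* and *Adamts20* encode proteases that cut lecticans, and *Timp3* encodes an inhibitor that acts on ADAMTS enzymes. *Adamts5* had 13.8, 15.49 and 19.9 normalised CPM at P1 and 93.01, 100.3 and 90.5 at P8, then 69.0, 64.8 and 29.1 at P14 and 27.6, 40.9 and 32.2 at P30. P8 was above every other SGN age without overlap, and the rise from P1 was 2.57 ± 0.33 on the log2 scale (limma BH-adjusted p = 0.00012). *Adamts20* rose by 1.96 ± 0.45 (0.0096) and *Timp3* by 2.06 ± 0.63 (0.044).

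Levels of these 3 genes in glial cells are set beside this step because Schwann cell myelin markers moved with it. The summed level of 8 such markers was 43.8 to 129.7 normalised CPM per kb at P1, 635 to 1051 at P8 and 12.3 to 190.1 at P30. *Timp3* was 1120 (SD 131) and *Adamts20* 553 (SD 220) normalised CPM in glial cells, against 102 and 32.6 in P8 SGNs, and *Adamts5* was 95.6 in glial cells against 94.6 in P8 SGNs. The part of glial RNA in these rises was not tested.

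Of 19 receptors and binding partners, 18 were tested, and 2 rose and 1 fell from E15.5 to P1, where 5.08% and 3.18% of all genes did, and 1 rose and 1 fell from P1 to P8, against 4.29% and 3.15%. *Sema3a*, a guidance factor that binds to nets, had 308, 112 and 279 normalised CPM at E15.5 and 90.5, 102 and 95.8 at P1, and fell by 1.13 ± 0.31 on the log2 scale (limma BH-adjusted p = 0.027). *Rtn4r*, the Nogo receptor, which also binds chondroitin sulfate, was 0.133, 5.71 and 0.677 at E15.5 and 9.66, 5.11 and 8.66 at P1 and rose by 3.01 ± 0.92 (limma BH-adjusted p = 0.045), although the groups overlapped through E15.5 replicate 2. *Fbln1*, a fibulin, rose from 0, 3.39 and 0.483 at E15.5 to 33.9, 54.2 and 26.2 at P1 and fell to 12.8, 9.69 and 5.34 at P8. These steps were 6.38 ± 1.55 and -2.01 ± 0.58 (limma BH-adjusted p = 0.015 and 0.033). *Fbln2* rose from P1 to P8 by 2.36 ± 0.71 (limma BH-adjusted p = 0.042), and it had 333 normalised CPM in glial cells against 44.7 in P8 SGNs. From E15.5 to P30, 4 of the 18 rose and 5 fell, where 18.4% and 16.2% of all genes did, with *Cntn1* (1.496), a contactin that binds tenascin-R, and *Nptx2* (5.78), a pentraxin of excitatory synapses, among those that rose. *Cemip*, *Cd44*, *Cntn1* and *Nptx2* were called over the whole span only and are named after their values were seen.

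**Figure D5:**
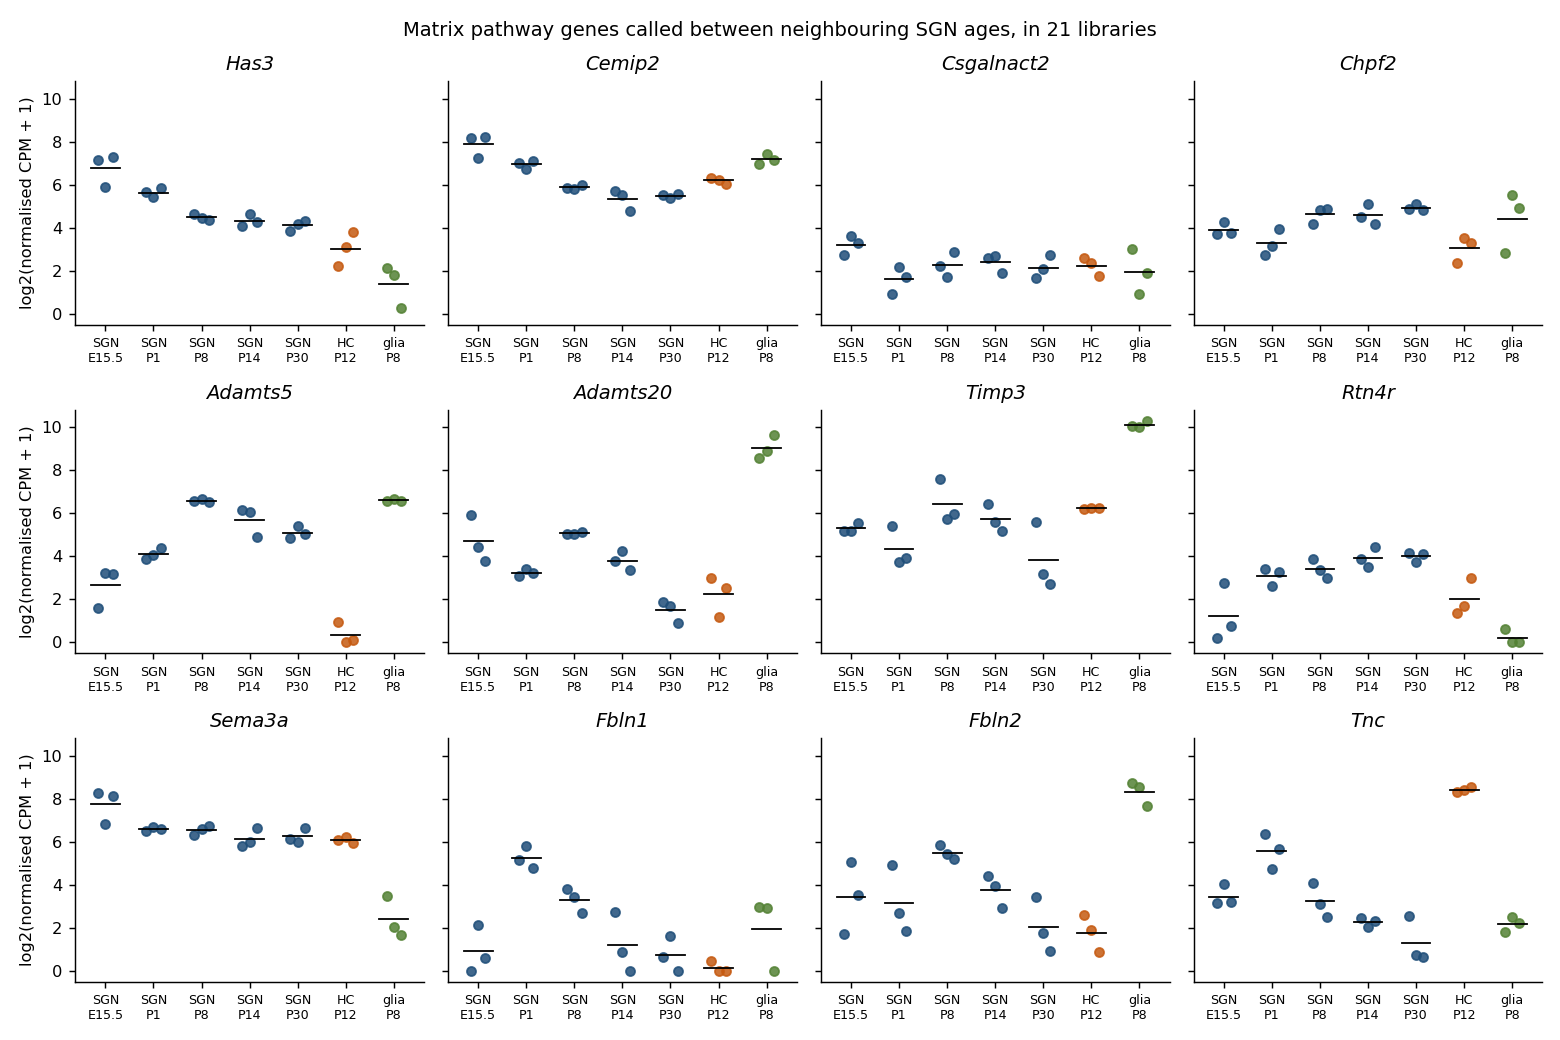
The 12 other matrix genes called in a neighboring step, as log2(normalised CPM + 1) in 21 libraries, with a line at each group's mean. *Has3* and *Cemip2* step down over the SGN ages, *Adamts5* is highest in P8 SGNs and glial cells, *Timp3*, *Adamts20* and *Fbln2* are highest in glial cells, and *Tnc* in HCs.

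Of 7 other tenascins and proteoglycans, 5 were tested. *Tnc*, which encodes tenascin-C of developing tissue, had 7.73, 15.4 and 8.02 normalised CPM at E15.5, 79.9, 25.3 and 49.01 at P1 and 15.8, 7.67 and 4.65 at P8. P1 lay above both neighbors without overlap, with a rise of 2.25 ± 0.57 (limma BH-adjusted p = 0.019) and a fall of 2.48 ± 0.52 (0.0056) on the log2 scale. HCs had 321, 336 and 374 normalised CPM of *Tnc* against 4.54, 3.15 and 3.94 in P14 SGNs. The P14 SGN to HC difference was -6.47 on the log2 scale and passed the call. *Tnc* and *Tnr* were thus both present in HC libraries, and the part of other cell types in these values was not tested. In SGNs *Tnc* was highest at P1, while *Tnr* had its highest means at P14 and P8, whose libraries overlapped those of P30.

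Genes whose highest group mean was over 100 TPM were also named. These were *Timp3* and *Tnc*, described above, with *Timp2*, *Itgb1* and *Ptn*, which encode a metalloprotease inhibitor, an integrin subunit and pleiotrophin. The mean normalised CPM of *Timp2* was 509 in glial cells and 94.05 in P8 SGNs, that of *Itgb1* 517 and 103, and that of *Ptn* 531 and 169. *Timp2* and *Itgb1* were called lower in P8 SGNs than in glial cells, and *Ptn* was not, with overlapping groups.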

How the data were processed

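Per the labels and the study's methods, amplified cDNA was sequenced, reads were aligned with STAR 2.4.0i to mm10, and the authors counted reads per GENCODE gene with featureCounts; the deposited values used here are raw counts per gene. The 9 members and all lists were chosen with earlier results of these data known. Counts were filtered at CPM over 1 in all 3 libraries of a group and scaled by TMM (edgeR 4.0.16). They were fitted with limma-voom (limma 3.58.1, R 4.3.3) over the 15 SGN libraries for ages and over all 21 libraries for cell types. BH adjustment was over all genes tested. Calls between ages needed an adjusted p under 0.05 and over 2-fold, and between cell types 0.01 and 4-fold. The fits were tested on simulated data. Levels are normalised CPM in place of the planned TPM, because genes under 100 bases held 9.37% to 74.3% of TPM in a library. Genes named were the members, list genes called in a neighboring step or over 100 TPM, and the 3 genes with the highest r for each member. Same-numbered libraries deviated together from P14 to P30 (r = 0.389, 0.267 and 0.123); this pairing comes from the data, as the labels do not say what a number shares. Alternatives were edgeR, DESeq2 1.42.0, other scalings and filters, quality weights, a replicate block and leaving out each library. The labels name no batch. Some marker genes are not reported here.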

Additional observations from a re-analysis of the deposited data

How the results depend on the processing

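No called difference of the 9 genes changed sign in any alternative run. Leaving out 1 library at a time, 287 of 336 values kept direction and side of the limit, 23 lost the call, 4 gained it and 22 changed sign; over the other settings these were 332, 15, 14 and 15 of 376. DESeq2 gave no adjusted p for some fits of *Hapln1* and *Acan*, which are left out. Members called changed from 1 to 2 at E15.5 to P1 with edgeR or DESeq2, and from 1 to 0 at P8 to P14 with edgeR. Between P8 SGNs and glia they changed from 4 to 1 with quality weights, and between HCs and glia from 2 to 1 with library size only or no filter and to 0 with weights. With the replicate block, members past the limits were 5 from P1 to P8 (3 without it; values of this step were used in the choice, so both counts are descriptions and no support), 2 for the P8 to P14 step (1), 2 for the P14 to P30 step (0) and 2 between P8 SGNs and glia (4); apart from P14 to P30 the numbers did not pass the pairing check. Counts of members between P8 SGNs and glia are descriptions too, because the P8 libraries entered the choice. Leaving out a library gave 2 to 4 members between P8 SGNs and glia and 0 to 2 between HCs and glia. The cause was not tested.

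Genes called were 1248 from E15.5 to P1, 396 with the block, 552 with weights and 688 to 1772 with a library left out. They were 1124 from P1 to P8, 649 with edgeR and 652 to 1015 with a library left out. They were 81 from P8 to P14, against 34 with edgeR, 219 with DESeq2, 174 with weights, 341 with the block and 28 to 54 with a library left out. They were 9 from P14 to P30, against 97 with DESeq2, 110 with weights, 15 without a filter, 164 with the block and 1 to 30 with a library left out. Between P8 SGNs and glia they were 3662, 1942 with weights and 960 with the block, and between HCs and glia 4272 and 2226 with weights.

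Log2 differences that were not called and changed sign were these. *Hapln1* was -2.68 with edgeR and -2.38 with the block from E15.5 to P1, and -1.67 and -1.36 from E15.5 to P30. *Bcan* from P14 to P30 was 0.13 with edgeR, 0.14 with DESeq2, 0.0018 with RLE size factors, 0.076 with weights and 0.045 with the block. *Vcan* between P14 SGNs and HCs was -0.14 with DESeq2, -0.021 with RLE size factors and -0.54 with library size only, and between P8 SGNs and glia 0.032 without a filter. *Acan* with weights was 1.01 from P8 to P14 and -0.015 between P8 SGNs and glia. With a library left out, *Hapln1* ran from -1.27 to 3.77 (E15.5 to P1) and from -0.15 to 4.90 (E15.5 to P30), *Tnr* from -0.59 to 1.24 (E15.5 to P1), *Hapln4* from -0.19 to 0.0105 and *Bcan* from -0.26 to 0.35 (P14 to P30). *Acan* ran from -0.80 to 5.06 (P1 to P8), -2.87 to 1.81 (P8 to P14), -2.90 to 2.62 (E15.5 to P30) and -0.86 to 4.32 (P8 SGNs and glia). *Vcan* ran from -0.56 to 0.24 (P8 SGNs and glia) and -0.51 to 0.72 (P14 SGNs and HCs).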
